A study of Mus musculus with 2 samples.

Results

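Endothelial genes were followed in 2 cell populations sorted from the mouse otocyst, the epithelial vesicle that forms the inner ear. The list held 45 genes that build, line and steer blood vessels, chosen by name with earlier results of these data known. All 45 had at least 1 probe set that named the gene alone, out of 18194 genes named in this way on the arrays. The otocysts came from embryos at E10.5, in mid-gestation, that carried the transgene Tg(ETAR-EGFP)14Imeg in the heterozygous state, and the tissue was dissociated with trypsin and sorted by EGFP fluorescence. The EGFP-positive population represents, per the labels, mainly ventral and dorsomedial otocyst. The EGFP-negative population includes the dorsolateral part, where the labels place no EGFP. Both groups share the transgene and the age, and each was measured on 1 array. How many embryos or sorts were pooled for an array, and which promoter fragment drives the transgene, are not given in the sources used here.

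Endothelial cells line every blood and lymphatic vessel. VEGF ligands, released by surrounding tissue, act on receptor tyrosine kinases of the endothelial surface, and the angiopoietins act on a second kinase family, the Tie receptors, to stabilise the vessel. Transcription factors of the ETS and SoxF families switch on most genes of the endothelial programme. In the embryo a plexus of such vessels surrounds the otocyst in the periotic mesenchyme, whereas the otic epithelium itself holds none.

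The values are MAS5 signals, intensities on a linear scale, 1 per probe set for 45101 probe sets. Each array's 40th percentile served as a floor, 10.4 in EGFP-positive cells, against 12.4 in EGFP-negative cells, and a log2 ratio here sets EGFP-positive over EGFP-negative cells after lifting signals under a floor to it. The highest of 27 bacterial control probe sets without evident signal reached 12.3 in EGFP-positive cells, against 9.0 in EGFP-negative cells. For a gene whose EGFP-positive signal was at or below 12.3, both signals are given and no fold. A difference was counted from 2-fold. With 1 array per population no test was possible, no p-value is given, and every difference describes these 2 libraries. Probe sets of the same gene gave a partial measure of technical error, and the SD of their log2 ratios was 0.315 over 5640 genes, and 0.39 over the 10 endothelial genes that allowed it.

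The 2 libraries had median signals of 17.6 in EGFP-positive cells, against 20.6 in EGFP-negative cells. Of 13363 genes that passed the floor in either population, 388 were higher by 2-fold or more in EGFP-positive cells (2.90%) and 1019 lower (7.63%). That split depended on scaling. Quantile normalization gave 503 higher and 822 lower, centring on hybridisation controls gave 213 higher and 1510 lower, and centring on otic epithelium genes gave 18 higher and 11567 lower. The labels call both populations epithelial. Of 11 measured otic epithelium genes, 10 were higher by 2-fold or more in EGFP-positive cells, with summed signals of 9579 in EGFP-positive cells, against 4514 in EGFP-negative cells. The exception was Oc90, an otoconial protein gene, with 939.8 in EGFP-positive cells, against 1406 in EGFP-negative cells.

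Most endothelial transcripts had lower signals in EGFP-positive than in EGFP-negative cells. Of the 45 genes, 23 were above the floor in both libraries, 20 in EGFP-negative cells only, and 2, Stab2 and Tal2, in neither. Among the 23 measured on both sides, 14 were at least 2-fold lower in EGFP-positive cells, none was higher by that much, and 9 lay within 2-fold. Over all 11682 genes measured on both sides, 5.41% were lower in EGFP-positive cells by 2-fold or more and 2.78% were higher. The median log2 ratio of the 23 genes was -1.38, against 0.03 over those 11682 genes. The 20 genes seen in EGFP-negative cells only must have a ratio below 0, and all 20 were past 2-fold. For such genes this means only that the EGFP-negative signal was at least 2-fold above the EGFP-positive floor of 10.4. Of 952 genes on the arrays in that situation, 40.7% were past 2-fold. With the floor at the 60th percentile of each array, 17 of 32 endothelial genes were at least 2-fold lower, against 34 of 43 with the floor at the 40th.

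**Figure D1:**
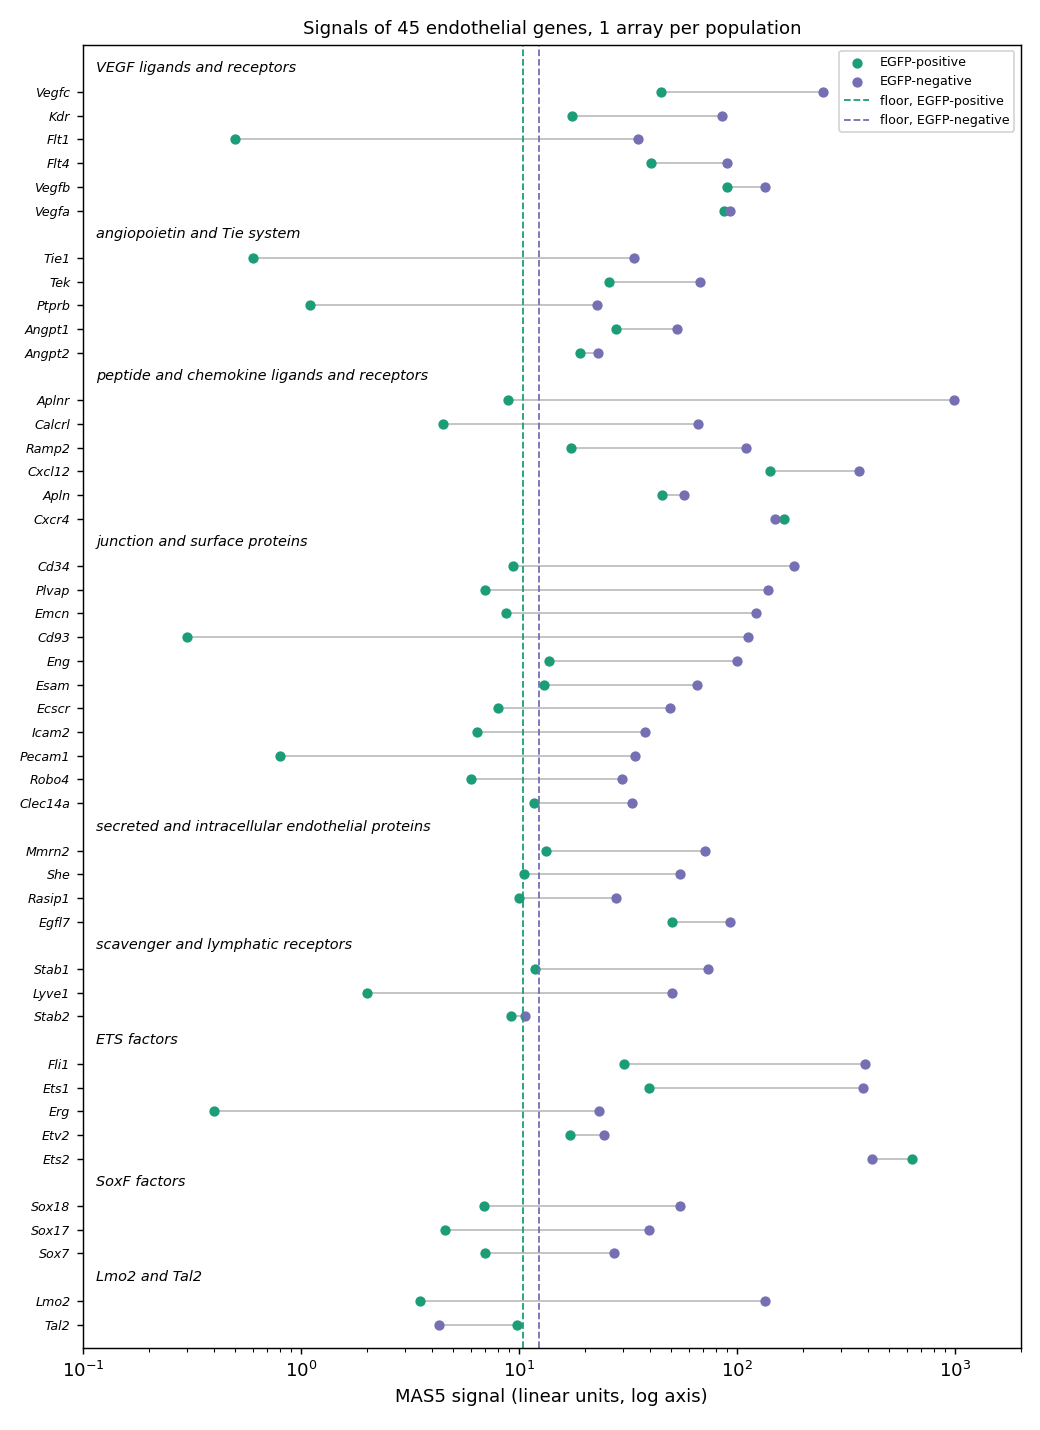
Signals of the 45 endothelial genes in EGFP-positive cells (green) and EGFP-negative cells (purple), 1 array each, on a log axis in MAS5 units, grouped by role with the floors of 10.4 and 12.4 as dashed lines. In 20 of the 43 genes above a floor the green point lies under its own floor, whereas Vegfa, Apln, Angpt2 and Cxcr4 lie close together and Ets2 is higher in EGFP-positive cells.

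RefSeq promoter windows (GRCm38.p6) were on hand for 26 of the 45 genes. They are shown because genes of this list lay on the same side together and ETS factors, themselves on the list, bind DNA at a GGAA core. The 250 bases before the annotated start are printed 5′ to 3′ on the gene's strand for the 3 genes past 2-fold with 2 matches to the ETS-type word AGGAAG. The receptor genes Kdr and Tek follow, whose windows hold no match to that word. Capitals mark AGGAAG or its reverse complement. The shorter core GGAA, read on both strands, does occur in the Kdr and Tek windows and is not marked. The windows are those of Emcn (chr3:137340828-137341077, plus strand), Eng (chr2:32646345-32646594, plus strand), Flt1 (chr5:147726012-147726261, minus strand), Kdr (chr5:75978456-75978705, minus strand) and Tek (chr4:94739039-94739288, plus strand).
Emcn: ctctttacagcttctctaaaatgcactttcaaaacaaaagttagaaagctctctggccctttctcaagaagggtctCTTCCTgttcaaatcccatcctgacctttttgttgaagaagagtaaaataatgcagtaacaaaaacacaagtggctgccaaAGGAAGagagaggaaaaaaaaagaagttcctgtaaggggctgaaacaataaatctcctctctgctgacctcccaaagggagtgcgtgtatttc
Eng: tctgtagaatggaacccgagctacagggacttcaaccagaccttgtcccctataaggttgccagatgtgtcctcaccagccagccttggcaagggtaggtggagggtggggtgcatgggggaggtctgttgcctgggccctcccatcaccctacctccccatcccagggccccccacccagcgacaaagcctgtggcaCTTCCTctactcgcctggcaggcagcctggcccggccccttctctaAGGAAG
Flt1: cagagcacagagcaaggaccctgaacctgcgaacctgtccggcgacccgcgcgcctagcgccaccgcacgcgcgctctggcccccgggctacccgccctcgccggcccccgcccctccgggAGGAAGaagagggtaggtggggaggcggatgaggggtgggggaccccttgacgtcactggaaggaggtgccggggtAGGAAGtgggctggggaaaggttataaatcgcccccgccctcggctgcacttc
Kdr: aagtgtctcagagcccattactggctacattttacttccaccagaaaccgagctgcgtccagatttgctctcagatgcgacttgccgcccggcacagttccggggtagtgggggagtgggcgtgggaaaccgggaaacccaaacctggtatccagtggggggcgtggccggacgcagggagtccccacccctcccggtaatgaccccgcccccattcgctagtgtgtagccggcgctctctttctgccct
Tek: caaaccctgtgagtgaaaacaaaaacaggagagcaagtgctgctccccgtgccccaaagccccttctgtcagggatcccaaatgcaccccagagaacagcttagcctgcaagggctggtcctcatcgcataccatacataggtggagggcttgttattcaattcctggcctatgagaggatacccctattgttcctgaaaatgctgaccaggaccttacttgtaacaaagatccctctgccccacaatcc

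Of the 34 genes past 2-fold, 17 had windows, 19 windows in all. The word AGGAAG, read on both strands, occurred in 10 of the 19 windows (52.6%), those of Calcrl, Cd34, Emcn, Eng, Erg, Flt1, Rasip1, Robo4, Stab1 and Tie1. It occurred in 29.5% of all 32851 promoter windows of that length. The GATA word AGATAA was in 1 of the 19 windows, that of Erg, against 9.99% of all windows. The SOX word ACAATG was in 2, those of Calcrl and Erg, against 10.7% of all windows. None of the words contains another. A match describes letters in a window and is not a mapped binding site.

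Among the VEGF ligands, Vegfa and Vegfb were within 2-fold between the populations and Vegfc was not. Vegfa, the main growth signal for vessels, had a signal of 87.6 in EGFP-positive cells, against 93.4 in EGFP-negative cells, a log2 ratio of -0.09, and its second probe set stood at -0.06. Vegfb, a ligand of the Flt1 receptor, had 90.4 in EGFP-positive cells, against 134.3 in EGFP-negative cells, 1.49-fold lower. Vegfc, the ligand of Flt4 and a driver of lymphatic growth, had 45 in EGFP-positive cells, against 247.2 in EGFP-negative cells, 5.49-fold lower. All 3 probe sets of Vegfc were past 2-fold, with log2 ratios from -2.93 to -2.46.

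The VEGF receptor transcripts were lower in EGFP-positive cells. Kdr, which encodes VEGFR2, the receptor that carries most of the VEGF signal, had 17.5 in EGFP-positive cells, against 85.4 in EGFP-negative cells, 4.88-fold lower. Flt1, which encodes a high-affinity receptor that limits VEGF signalling, had 0.5 in EGFP-positive cells, against 35.1 in EGFP-negative cells. Its 3 other probe sets had lower EGFP-negative signals. The first read 11.8 in EGFP-positive cells, against 18.7 in EGFP-negative cells, the next 2.6 in EGFP-positive cells, against 23.9 in EGFP-negative cells, and the last 1.3 in EGFP-positive cells, against 13 in EGFP-negative cells. The median over the probe sets of Flt1 was within 2-fold. Flt4 had 40.3 in EGFP-positive cells, against 90.2 in EGFP-negative cells, 2.24-fold lower, but its second probe set was at -0.19, so this call rested on 1 probe set. In bulk RNA such as this, fewer endothelial cells and less RNA per cell cannot be told apart.

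In the angiopoietin and Tie system both receptor genes were past 2-fold and neither ligand gene was. Angpt1, the agonist of the Tek receptor, had 27.8 in EGFP-positive cells, against 53.1 in EGFP-negative cells, 1.91-fold lower and so within the 2-fold limit. Angpt2, which mostly antagonises it, had 19.1 in EGFP-positive cells, against 23.0 in EGFP-negative cells, a log2 ratio of -0.27. The receptor gene Tek, also called Tie2, had 26.0 in EGFP-positive cells, against 67.6 in EGFP-negative cells, 2.60-fold lower. The split between Tek and Angpt1 lay near the limit. With a pseudocount of 16 in place of the floor Tek was at -0.99, within 2-fold. After centring on hybridisation controls Angpt1 was at -1.21, past 2-fold. The partner of Tek, Tie1, had 0.6 in EGFP-positive cells, far under the floor, and 33.7 in EGFP-negative cells. Ptprb, which encodes the vascular endothelial phosphatase that restrains Tek, had 1.1 in EGFP-positive cells, against 22.9 in EGFP-negative cells. The EGFP-negative signal of Ptprb is low, and the gene was within 2-fold when the EGFP-positive floor was raised to the highest bacterial control or after quantile normalization.

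Of the peptide and chemokine receptor genes, all but Cxcr4 were past 2-fold. Aplnr, the apelin receptor gene of venous and sprouting endothelium and of early mesoderm, had 8.9 in EGFP-positive cells, against 994.0 in EGFP-negative cells. Its second probe set read 4.2 in EGFP-positive cells, against 89.3 in EGFP-negative cells, so both lay under the floor on the EGFP-positive side. Its ligand gene Apln, by contrast, had 45.2 in EGFP-positive cells, against 57.3 in EGFP-negative cells, a log2 ratio of -0.34. Calcrl and Ramp2 together encode the adrenomedullin receptor, which lymphatic and blood vessels need in development. Calcrl had 4.5 in EGFP-positive cells, against 66.3 in EGFP-negative cells. Its second probe set read 4.1 in EGFP-positive cells, against 17.9 in EGFP-negative cells. Ramp2 had 17.3 in EGFP-positive cells, against 110.2 in EGFP-negative cells, 6.37-fold lower.

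The chemokine Cxcl12 and its receptor Cxcr4 guide migrating cells, vessels among them, and neither is confined to endothelium. Cxcl12 had 141.1 in EGFP-positive cells, against 362.6 in EGFP-negative cells, 2.57-fold lower, and a second probe set was at -0.70. Cxcr4 had 164.0 in EGFP-positive cells, against 150.1 in EGFP-negative cells, a log2 ratio of 0.13, which is smaller than the SD between probe sets. After centring on hybridisation controls or on otic epithelium genes the ratio of Cxcr4 was below 0.

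Sorted by role across these 3 signalling systems, a split drawn up after the values were seen, 2 of 7 ligand genes were at least 2-fold lower in EGFP-positive cells, namely Vegfc and Cxcl12. Of 9 receptor and co-receptor genes 8 were at least 2-fold lower, the exception being Cxcr4. The median log2 ratio was -0.57 for the ligands and -1.75 for the receptors, 4 of which lay under the EGFP-positive floor. All 7 ligand transcripts were above the floor in both populations. Over all genes that passed the floor, 7.63% were at least 2-fold lower, and 40.7% of genes above it in EGFP-negative cells only. The split depended on scaling, on the floor and on the probe set rule. With a pseudocount of 16 in place of the floor, Flt4 and Tek were within 2-fold. With the median over probe sets, Flt1 and Flt4 were within 2-fold. With the floor at the 60th percentile Calcrl was within 2-fold, and Flt1 and Tie1 were at the floor on both sides. Angpt1 was past 2-fold after centring on hybridisation controls. After centring on otic epithelium genes Vegfa, Vegfb, Angpt1, Angpt2, Apln and Cxcr4 were at least 2-fold lower too, as were 11567 of all 13363 genes. The difference between ligands and receptors was not tested.

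All 11 genes for junction and surface proteins of endothelium were at least 2-fold lower in EGFP-positive cells, and 8 of the 11 were above the floor in EGFP-negative cells only. Of all genes on the arrays above the floor in EGFP-negative cells only, 40.7% were past 2-fold, beside 7.63% of all genes that passed the floor. A floor set at each array's 60th percentile ended the calls of Esam, Icam2 and Ecscr and left Pecam1, Clec14a and Robo4 at the floor on both sides. A pseudocount of 16 in place of a floor, or the median over probe sets, ended the call of Clec14a. Pecam1, the adhesion molecule used as a general endothelial marker, had 0.8 in EGFP-positive cells, against 34.1 in EGFP-negative cells. Cd34, a sialomucin of endothelium and of blood progenitors, had 9.4 in EGFP-positive cells, against 183.6 in EGFP-negative cells. Emcn, another endothelial sialomucin, had 8.7 in EGFP-positive cells, against 121.8 in EGFP-negative cells. In each of these 3 cases the EGFP-positive signal was under its floor and under the highest bacterial control.

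Eng, which encodes the TGF-beta co-receptor endoglin, was measured on both sides, with 13.7 in EGFP-positive cells, against 100.3 in EGFP-negative cells, 7.32-fold lower. Esam, a tight junction adhesion molecule, had 13 in EGFP-positive cells, against 65.9 in EGFP-negative cells, 5.07-fold lower. These EGFP-positive signals lay just above the highest bacterial control, so the size of these folds depends on values close to background. Plvap, a component of the diaphragms of fenestrae and caveolae, had 7.0 in EGFP-positive cells, against 138.3 in EGFP-negative cells. Cd93, a lectin-like receptor, had 0.3 in EGFP-positive cells, against 112.0 in EGFP-negative cells. Another of its probe sets read 1.4 in EGFP-positive cells, against 12.6 in EGFP-negative cells, next to the floor on that side.

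The EGFP-negative signals of the remaining junction and surface genes lay between 29.7 and 49.4. Ecscr, a modulator of endothelial migration, had 8.0 in EGFP-positive cells, against 49.4 in EGFP-negative cells. Icam2, an intercellular adhesion molecule, had 6.4 in EGFP-positive cells, against 37.9 in EGFP-negative cells. Clec14a, a lectin-domain protein of vessel sprouts, had 11.7 in EGFP-positive cells, against 33.0 in EGFP-negative cells. Its second probe set read 0.8 in EGFP-positive cells, against 14.1 in EGFP-negative cells, and the median over both was within 2-fold. Robo4, the vascular member of the roundabout receptors, had 6.0 in EGFP-positive cells, against 29.7 in EGFP-negative cells.

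Of the secreted and intracellular proteins, Mmrn2, an extracellular matrix protein that binds Clec14a and Cd93, had 13.3 in EGFP-positive cells, against 71.2 in EGFP-negative cells, 5.35-fold lower. That EGFP-positive signal lay just above the highest bacterial control, so the size of this fold depends on a value close to background. All 4 probe sets of Mmrn2 were past 2-fold. In EGFP-positive cells 2 of them were under the floor, so that their ratios are bounds. Egfl7, a secreted protein of growing vessels, had 50.3 in EGFP-positive cells, against 93.1 in EGFP-negative cells, 1.85-fold lower, with its 4 probe sets spread from -1.28 to -0.40. She, an SH2-domain adaptor, had 10.6 in EGFP-positive cells, against 54.8 in EGFP-negative cells. Its other probe set read 1.2 in EGFP-positive cells, against 13.1 in EGFP-negative cells. Rasip1, a GTPase effector needed for vessel lumen formation, had 10.0 in EGFP-positive cells, against 27.8 in EGFP-negative cells. Except for Egfl7, these genes were past 2-fold.

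The scavenger and lymphatic receptors are shared by endothelium and macrophages. Lyve1, a hyaluronan receptor of lymphatic vessels and of some macrophages, had 2.0 in EGFP-positive cells, against 50.5 in EGFP-negative cells. Its second probe set read 1.6 in EGFP-positive cells, against 20.2 in EGFP-negative cells. Stab1, a scavenger receptor of sinusoidal endothelium and macrophages, had 11.9 in EGFP-positive cells, against 73.5 in EGFP-negative cells. Stab2, the sinusoidal hyaluronan scavenger, was at the floor in both, with 9.2 in EGFP-positive cells, against 10.7 in EGFP-negative cells. The macrophage and leukocyte genes moved with Lyve1 and Stab1. Of 13 such genes, 12 were above the floor. All 12 were at least 2-fold lower in EGFP-positive cells, beside 7.63% of all genes that passed the floor. Their summed signals were 154.4 in EGFP-positive cells, against 1607 in EGFP-negative cells. Among them Csf1r, the macrophage growth factor receptor gene, had 18.3 in EGFP-positive cells, against 607.1 in EGFP-negative cells. Its second probe set read 1.8 in EGFP-positive cells, against 172.7 in EGFP-negative cells. The third read 35.2 in EGFP-positive cells, against 52.9 in EGFP-negative cells, a log2 ratio of -0.59 and so within 2-fold. The part of macrophage RNA in the signals of Lyve1 and Stab1 was not tested.

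**Figure D2:**
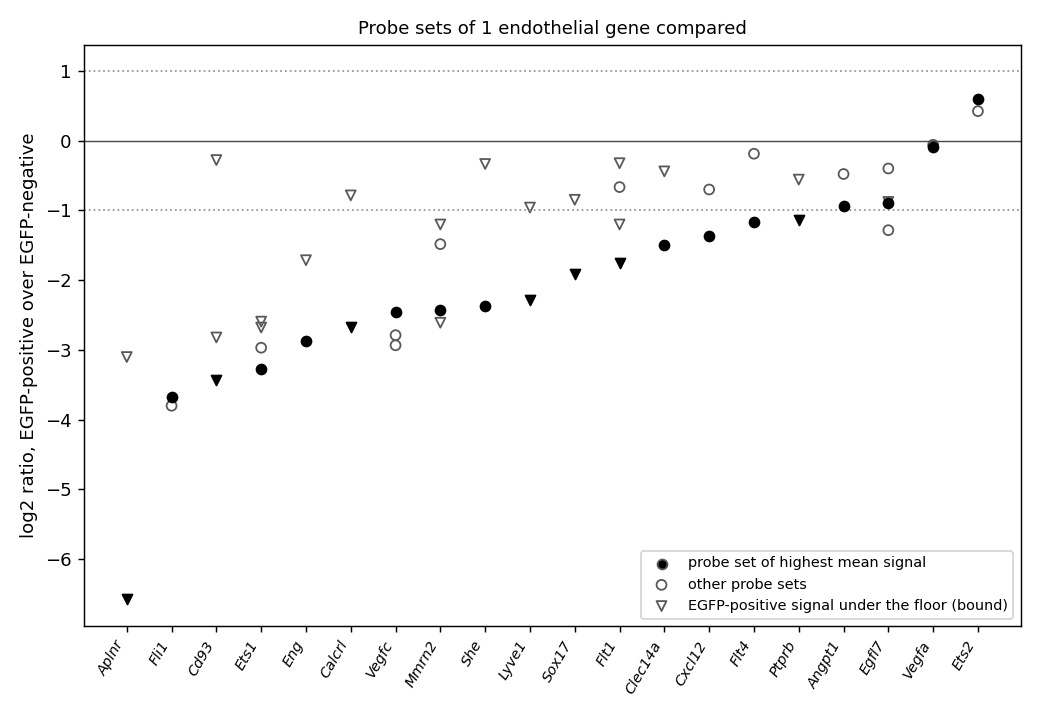
Log2 ratio of EGFP-positive over EGFP-negative for each probe set of the 20 endothelial genes for which several probe sets passed the floor, filled for the probe set of highest mean signal and open for the others. Triangles mark probe sets under the floor in EGFP-positive cells, whose ratios are bounds and must lie below 0. In the 10 genes with several circles the circles of a gene lie on 1 side of 0, and several open points lie between the dotted 2-fold lines at -1 and 1.

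The ETS factors diverged. Fli1, which maintains endothelial and blood gene expression, had 30.2 in EGFP-positive cells, against 386.6 in EGFP-negative cells, 12.8-fold lower, with its probe sets at -3.68 and -3.80. Ets1, a factor of endothelium and of mesenchyme, had 39.3 in EGFP-positive cells, against 378.2 in EGFP-negative cells, 9.62-fold lower. A second probe set measured on both sides stood at -2.97, and its other 2 were under the floor in EGFP-positive cells. These were the ETS factors measured well above the floor in both populations, apart from Ets2.

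Ets2, a widely expressed ETS factor downstream of MAP kinase signalling, had 635.1 in EGFP-positive cells, against 417.5 in EGFP-negative cells, 1.52-fold higher, with its second probe set at 0.42. The ratio of Ets2 was below 0 when the arrays were centred on otic epithelium genes. Erg, which maintains endothelial identity, had 0.4 in EGFP-positive cells, against 23.4 in EGFP-negative cells. Like Ptprb, it was within 2-fold with the floor at the highest bacterial control or after quantile normalization. Etv2, the factor that starts the endothelial programme in mesoderm and is then turned off, had 17.2 in EGFP-positive cells, against 24.5 in EGFP-negative cells, 1.42-fold lower.

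All 3 SoxF genes, which act in arterial and lymphatic specification, were under the floor in EGFP-positive cells. Sox18 had 6.9 in EGFP-positive cells, against 55.1 in EGFP-negative cells. Sox17, also a gene of endoderm, had 4.6 in EGFP-positive cells, against 39.3 in EGFP-negative cells. Its second probe set read 2.7 in EGFP-positive cells, against 18.7 in EGFP-negative cells. Sox7 had 7.0 in EGFP-positive cells, against 27.4 in EGFP-negative cells. All 3 were thus above the floor in EGFP-negative cells only. The same held for 20 of the 43 endothelial genes that passed the floor, these 3 included, and for 952 of all 13363. Of those 952 genes 40.7% were past 2-fold, as were the 3 SoxF genes. With the floor at the 60th percentile Sox17 and Sox18 were within 2-fold, and Sox7 was at the floor on both sides. With a pseudocount of 16 Sox7 was within 2-fold.

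Lmo2, a bridging protein of transcription complexes in blood and endothelial progenitors, had 3.5 in EGFP-positive cells, against 135.0 in EGFP-negative cells. Tal2, a basic helix-loop-helix gene of the midbrain and other neural tissue, had 9.8 in EGFP-positive cells, against 4.3 in EGFP-negative cells, both at the floor. It is thus no measured difference. Tal1, the partner of Lmo2 and no member of the list, had 9.8 in EGFP-positive cells, against 220.2 in EGFP-negative cells.

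The probe sets allowed a check within each gene. Of 85 probe sets of the 45 genes, 73 were above the floor in at least 1 library. Of these, 36 were above the floor in both libraries. Among the 36, 33 had a ratio below 0, 20 were at least 2-fold lower in EGFP-positive cells and none was higher by that much. The share over all probe sets was not counted. Over all genes measured on both sides, 5.41% were lower and 2.78% higher by 2-fold or more. The other 37 of the 73 probe sets were above the floor in EGFP-negative cells only, so that the sign of their ratio is fixed. Of these 37, 28 were past 2-fold. In 10 genes 2 or more probe sets were measured on both sides. In each of the 10 these lay on the same side of 0, with all of them past 2-fold in 4 genes. How often the probe sets of other genes agree in this way was not counted. Of the 34 genes past 2-fold, 18 were called through a lone probe set. In 4 of the 45 genes the probe set that stands for the gene was of a type (_x_at or _s_at) that can bind transcripts of other genes.

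A list of 40 further vascular genes, drawn up with earlier results of these data known, was read in the same way. Above the floor in both libraries were 20 of the 40. Of these, 4 were lower in EGFP-positive cells by 2-fold or more and 1 was higher, with a median log2 ratio of -0.51. Over all 11682 genes measured on both sides, 5.41% were lower and 2.78% higher by that much, with a median of 0.03. A further 13 of the 40 were above the floor in EGFP-negative cells only, 10 of them past 2-fold, and 7 were at the floor in both. Of all genes above the floor in EGFP-negative cells only, 40.7% were past 2-fold. Tal1, described above, was among those 13. Cldn5, the endothelial claudin, had 2.2 in EGFP-positive cells, against 135.7 in EGFP-negative cells. Lyl1, a relative of Tal1, had 1.8 in EGFP-positive cells, against 105.9 in EGFP-negative cells. Both therefore lay under the floor in EGFP-positive cells, as did Mef2c, a factor of muscle, neural crest and endothelium, with 1.5 in EGFP-positive cells, against 97.0 in EGFP-negative cells.

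Nrp1, a co-receptor of VEGF and semaphorins, had 39.8 in EGFP-positive cells, against 241.4 in EGFP-negative cells, 6.07-fold lower. Hhex, an early endothelial and endodermal homeobox gene, had 8.9 in EGFP-positive cells, against 51.3 in EGFP-negative cells. Cdh5, which encodes VE-cadherin and was named after its values were seen, had 1.3 in EGFP-positive cells, against 47.8 in EGFP-negative cells. Hhex and Cdh5 were thus under the floor in EGFP-positive cells, and Nrp1 was above it.

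The highest ratios belonged to genes that are not restricted to vessels. Pgf, a ligand of Flt1, had 90.2 in EGFP-positive cells, against 29.2 in EGFP-negative cells, 3.09-fold higher. Efnb2, which encodes an ephrin of arteries and of many epithelia, had 1046 in EGFP-positive cells, against 723.2 in EGFP-negative cells, 1.45-fold higher. The Notch targets Hey1 and Hey2 were 1.69-fold and 1.80-fold higher, within the 2-fold limit. Hey1 had 351.5 in EGFP-positive cells, against 208.6 in EGFP-negative cells. Hey2 had 99.1 in EGFP-positive cells, against 55.2 in EGFP-negative cells. After centring on otic epithelium genes the ratios of Efnb2, Hey1 and Hey2 were below 0.

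**Figure D3:**
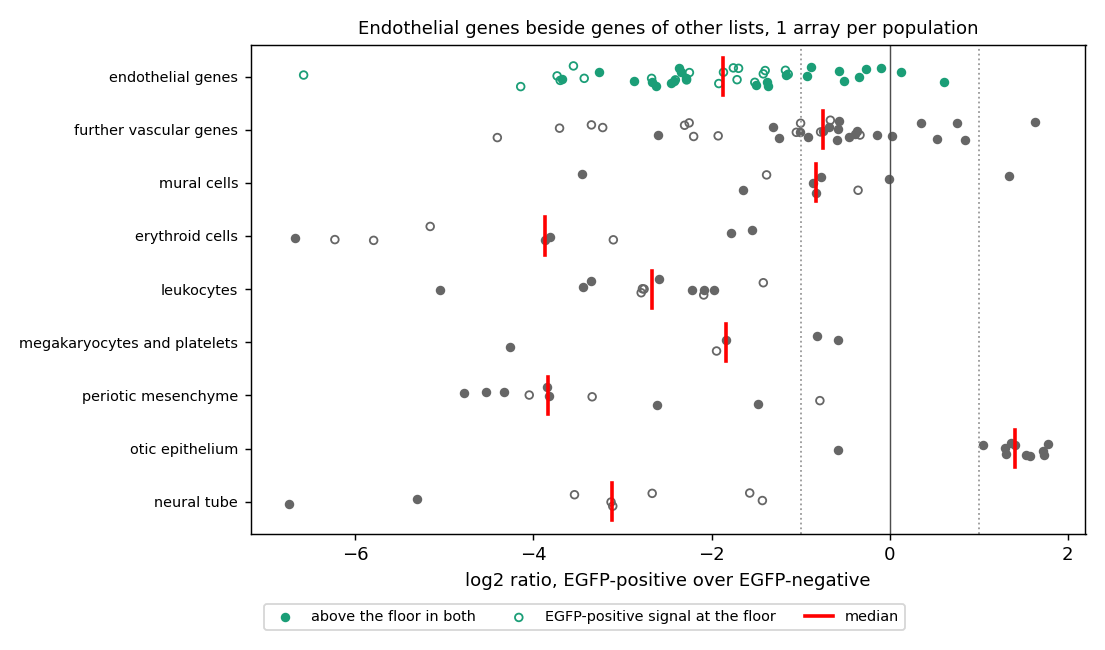
Log2 ratio of EGFP-positive over EGFP-negative for each gene that passed the floor in either population, by list, with the list median as a red bar and open points where the EGFP-positive signal is at the floor. Endothelial genes have a median of -1.87, between those of further vascular genes at -0.75 and erythroid genes at -3.87, whereas 10 of 11 otic epithelium genes lie at 1 or above, with a list median of 1.41, and Oc90 lies at -0.58.

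Markers of cells other than otic epithelium were mostly lower in the same library as the endothelial genes. All 9 erythroid genes above the floor were at least 2-fold lower in EGFP-positive cells, with summed signals of 3016 in EGFP-positive cells, against 21339 in EGFP-negative cells. Among them Hbb-bh1, an embryonic globin, had 500.5 in EGFP-positive cells, against 7047 in EGFP-negative cells. Of 10 periotic mesenchyme genes 9 were at least 2-fold lower, with sums of 365.4 in EGFP-positive cells, against 5560 in EGFP-negative cells. All 8 neural tube genes above the floor were at least 2-fold lower, with sums of 47.2 in EGFP-positive cells, against 2552 in EGFP-negative cells. Above the floor in EGFP-negative cells only were 4 of the 9 erythroid, 3 of the 10 mesenchyme and 6 of the 8 neural tube genes, and 5 of the 12 leukocyte genes, a situation in which 40.7% of all genes were past 2-fold. Over all genes that passed the floor, 7.63% were at least 2-fold lower. No gene of these lists was at exactly 0 in either library.

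The median log2 ratios were -3.87 for erythroid, -3.84 for mesenchyme, -3.12 for neural tube and -2.67 for leukocyte genes, beside -1.87 for the 43 endothelial genes that passed the floor in either population. The order of these medians depends in part on how far the EGFP-negative signals lie above the floor, since 20 of the 43 endothelial ratios are bounds. Genes of the list that mesenchyme or blood cells also use include Ets1, Fli1, Cd34, Lmo2, Vegfc, Angpt1 and Cxcl12. The part of mesenchymal and blood RNA in their signals was not tested.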

How the data were processed

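The authors deposited 1 intensity per probe set for 2 Affymetrix arrays, made from 1 µg of total RNA each. The values are MAS5 signals (version 5.0), per the submitters' processing notes, and the mean after trimming 2% at each end was 100.0 in both, so the arrays had been scaled to a common level. The scaling target and detection calls are not given in the sources used here. Of 45101 probe sets, 34958 named 1 gene by the platform annotation, with symbols updated through GRCm38.p6 RefSeq gene identifiers. Another 932 named several genes and 9211 were unnamed here. Coordinates are given for promoter windows only, in GRCm38.p6. The signals themselves name no genome build.

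A gene was represented by its probe set of highest mean signal. Signals were raised to the 40th percentile of their array before log2 ratios were taken, and genes at the floor on both sides were dropped. The endothelial genes and all other lists were chosen with earlier results of these data known. Endothelial genes past 2-fold or with a signal of 100 or more were to be named, and the remaining ones were added after their values were seen. Of further vascular genes, the 6 lowest (bounds where EGFP-positive cells were under the floor) and 4 highest ratios were named, and of each other list at most 3 genes of highest mean signal. Of 158 list entries, 5 had no probe set naming the gene alone. The number of arrays limits the precision, and no test or p-value was computed. The ratio calculation was tested on simulated data. Alternatives were other floors, a pseudocount, another probe set rule and other scalings. Python 3.11.15, numpy 2.4.6 and pandas 2.3.3 were used.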

Additional observations from a re-analysis of the deposited data

How the results depend on the processing

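No endothelial gene past 2-fold changed direction under the alternatives tried, which were 8 planned and 3 chosen after seeing the data (the floor at the highest bacterial control and centring on hybridisation controls or on otic epithelium genes). The lack of a reversal says little. Of the 34 ratios past 2-fold, 20 are bounds set by the floor, and centring on either of those 2 gene groups lowers every ratio. Genes at a raised floor on both sides were left out. The number of endothelial genes at least 2-fold lower in EGFP-positive cells was 34, and was 17 of 32 with the floor at the 60th percentile and 14 of 23 without genes at the floor in either library, where fewer genes were counted. With the floor at the 20th percentile 1 gene, Tal2, was at least 2-fold higher. The median log2 ratio of -1.87 became -1.06 with the floor at the 60th percentile, -2.46 with it at the 20th, -1.42 with a pseudocount of 16 in place of the floor, -1.38 without genes at the floor and -3.28 after centring on otic epithelium genes, which subtracts 1.41 from every ratio. Of named genes outside the list that were past 2-fold, that centring turned Rgs5 to -0.069 and the otic epithelium gene Krt8 to -0.053, and other otic epithelium genes under their list's median fall below 0 by construction. For further vascular genes, 14 were at least 2-fold lower, against 6 with the floor at the 60th percentile, 4 without genes at the floor and 29 after centring on otic epithelium genes. Their median of -0.75 became -0.40 with the pseudocount and -2.16 with that centring. Centring on hybridisation controls shifts all ratios by 0.27 downwards, which added the calls of Angpt1 and Egfl7. Centring on otic epithelium genes added those of Vegfa, Vegfb, Angpt1, Angpt2, Apln, Cxcr4, Egfl7 and Etv2, so that 42 of 43 endothelial genes were lower. Of single calls, the 60th percentile ended those of Calcrl, Esam, Icam2, Ecscr, She, Lyve1, Sox17 and Sox18. It left Flt1, Tie1, Ptprb, Pecam1, Clec14a, Robo4, Rasip1, Erg and Sox7 at the floor on both sides. The pseudocount ended the calls of Flt4, Tek, Clec14a, Rasip1 and Sox7. The median over probe sets ended those of Flt1, Flt4, Ptprb and Clec14a, and quantile normalization or the floor at the highest bacterial control those of Ptprb and Erg. No paired analysis was possible because each population has 1 array. Leaving out a replicate was likewise not possible.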

Other observations

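Genes of the cells that surround and accompany endothelium were read in the same 2 libraries. Of 9 mural cell genes above the floor, 3 were at least 2-fold lower in EGFP-positive cells, 1 was at least 2-fold higher and 5 were within 2-fold. Over all genes that passed the floor, 7.63% were lower and 2.90% higher by that much. Pdgfrb, the receptor gene of pericytes and of mesenchyme, had 56.1 in EGFP-positive cells, against 615.8 in EGFP-negative cells, 11-fold lower. Acta2, which encodes smooth muscle actin, had 32.5 in EGFP-positive cells, against 101.5 in EGFP-negative cells, 3.12-fold lower. Notch3, a receptor of smooth muscle and of several epithelia, had 363.1 in EGFP-positive cells, against 363.8 in EGFP-negative cells. Rgs5, a pericyte marker in the brain, was the gene that went the other way, and was named after its values were seen. It had 49.2 in EGFP-positive cells, against 19.4 in EGFP-negative cells, 2.54-fold higher. Its 3 other probe sets did not reach the EGFP-negative floor, so that their log2 ratios, from -0.24 to 0.83, are lower bounds. The brightest of them had 22.1 in EGFP-positive cells, against 5.0 in EGFP-negative cells. The higher call of Rgs5 thus rested on the 1 of 4 probe sets measured on both sides. The ratio of that probe set was below 0 after centring on otic epithelium genes.

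Of 5 megakaryocyte and platelet genes above the floor, 3 were at least 2-fold lower in EGFP-positive cells and 2 were within 2-fold. Over all genes that passed the floor, 7.63% were at least 2-fold lower. In EGFP-positive cells 1 of the 3 lower genes was under the floor, and only 3 of the 5 genes were above the highest bacterial control. Pf4, which encodes platelet factor 4 and is also found in some embryonic macrophages, had 13.4 in EGFP-positive cells, against 258.0 in EGFP-negative cells, 19.3-fold lower. Itga2b and Gp1bb, subunit genes of platelet receptors, were 1.76-fold and 1.5-fold lower. Itga2b had 35 in EGFP-positive cells, against 61.5 in EGFP-negative cells. Gp1bb had 29.2 in EGFP-positive cells, against 43.8 in EGFP-negative cells.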
